A study of Rattus norvegicus with 18 samples.

Results

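The array read 43 probe sets of 24 genes for voltage-gated calcium and sodium channels, chosen as all probe sets with 1 gene symbol in the platform annotation that starts with Cacna, Cacnb, Cacng, or Scn or Hcn followed by a digit. They are 43 of 8799 probe sets on the U34A GeneChip, a 1-colour Affymetrix array for rat. Cacna symbols held 20 probe sets of 9 genes, Cacnb 5 of 4 genes, Cacng 1, and Scn 17 of 10 genes. No annotated probe set names an Hcn gene (0 of the annotated probe sets, those with several symbols included), so the HCN pacemaker channels were not analysed here. The rule for members used gene symbols and no measured value, but it was set with earlier results of these data known.

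The tissue was the suprachiasmatic nucleus (SCN), the seat of the circadian clock in the hypothalamus, taken from adult male Long-Evans rats of 175 to 200 g. All animals had been kept in 12 h of light and 12 h of darkness and went into constant darkness at lights-off. Sampling began at the next projected lights-on, which is circadian time (CT) 0, and the 8 pools analysed here were taken at 0, 6, 12 and 18 h (day 1) and at 24, 30, 36 and 42 h (day 2), so that CT 0, 6, 12 and 18 each had 2 pools. All groups share genotype, strain, housing and darkness, and differ only in time. RNA of 5 rats was combined into 1 pool per time point, so the spread between single animals was not measured. Each pool was read in a first run (10 arrays, with arrays a and b at 24 and 36 h) and in a technical repeat (8 arrays). Arrays a and b are taken here to read the same pool, which the labels do not state.

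Voltage-gated calcium channels open on depolarisation and let calcium into the cell. Their pore is a Cacna1 subunit, which sets the type (L, P/Q, N, R or T), and an alpha2delta (Cacna2d), a beta (Cacnb) and in muscle a gamma (Cacng) subunit assist its trafficking and gating. Voltage-gated sodium channels carry the upstroke of the action potential through a large pore subunit with small beta subunits. SCN neurons fire faster by day than by night, and L-type and T-type calcium currents and a persistent sodium current are known to contribute to this daily rhythm of firing.

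Values are intensities in array units, already scaled per array when deposited (median over all probe sets 136.5 to 152.3 in the first run and 107.9 to 127.6 in the repeat). The 3 first-run arrays that stood apart did so by their spiked-in hybridisation controls, with a geometric mean of 619 at 12 h, 704 at 18 h and 1174 on array b at 36 h, against 238 to 417 on the other 15 arrays. Of the SCN marker genes fixed for the check of the tissue, Avp (geometric mean 1732) and Sst (5541) were bright, Vip (49.0) and Lhx1 (14.9) were dimmer than the level filter described next, and the other 4 of 8 were not annotated. All 6 markers of neighbouring hypothalamic neurons passed that filter, among them Oxt (3034), Hcrt (485) and Pmch (301), and so did all 5 annotated markers each of oligodendrocytes and of astrocytes. Of 3 annotated pan-neuronal markers 2 passed, and their summed level ran from 877 at 12 h to 1542 at 30 h. Over the pools the sums were 4268 to 6304 for neighbouring hypothalamus, 25366 to 30427 for oligodendrocytes and 15006 to 20220 for astrocytes. The part of these differences in the channel readings was not tested. In such tissue, fewer cells of a type and less RNA per cell cannot be told apart.

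Only probe sets whose mean log2 value exceeded that of the median probe set, 121 as an intensity, were tested. Of the 43 members 19 were above it (44.2%, against 50% of all probe sets by construction), and they stood for 16 of the 24 genes. Intensities of different probe sets depend on their probes and do not rank the transcripts. Probe sets whose names end in _s_at share probes with related transcripts and can read these too.

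Among the calcium channel pore genes, the pore of the N-type channel of nerve terminals, Cacna1b, had the brightest probe set (AF055477_at, geometric mean 1633, pools 1224 to 1989), and a second one read 175. L-type channels were read by 10 probe sets of 3 genes, of which 1 passed the filter. It belongs to Cacna1c, the cardiac and brain L-type pore (M59786_at, 618), whose other 2 probe sets read 57.6 and 34.9. All 5 probe sets of Cacna1d, an L-type pore that opens at more negative voltages, were below the filter, at 16.8 to 105, and both of Cacna1s, the skeletal muscle pore, at 14.8 and 22.1. Of the 4 probe sets of Cacna1a, the P/Q-type pore, 1 passed (359) and the dimmest lay at the floor of 12.1 on 14 of 18 arrays. Cacna1e, the R-type pore, passed narrowly (129). For T-type channels, which open near resting potential, Cacna1g passed (398) and Cacna1h did not (85.5).

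Accessory calcium channel subunits were mostly above the filter. Cacna2d1, the alpha2delta subunit that binds gabapentin, had the brightest probe set of all 43 members (3043, pools 2320.0 to 3562). Cacnb1 (338), Cacnb2 (592 and 126) and Cacnb3 (277) passed and Cacnb4 did not (28.3). Cacng1, the gamma subunit of the skeletal muscle channel, lay just above the filter (127).

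Of the 16 probe sets for sodium channel pores 7 passed. The brightest belonged to the brain channels Scn2a (1406) and Scn3a (1138), and Scn1a read 319.9. The second Scn3a probe set, designed on the same sequence record, read 35.0. All 3 probe sets of Scn8a, the pore of adult nodes and initial segments, were below the filter (22.4, 99.3 and 103). Scn7a, the atypical channel known from sodium-sensing glia, passed on both probe sets (370.1 and 208). Scn9a, a channel of peripheral and some hypothalamic neurons, passed on 1 of 2 (230.1). Scn4a, the skeletal muscle channel, passed on 1 of 3 (190.1). The sensory neuron channels Scn10a (44.9) and Scn11a (78.8) and the beta subunit Scn2b (25.1) did not pass.

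Markers of muscle and of peripheral sensory neurons are given beside these genes. Of 8 annotated muscle markers 5 passed the filter, the summed level of the 8 was 1656 to 2191 over the pools, and the lowest, Tnni2, read 19.9 while Myh3 read 881. Of 3 sensory neuron markers 1 passed (Prph, 129), with a summed level of 204 to 394. Tnni2 was the only marker of either list with a pool at the floor of 12.1, and their part in the Scn4a, Cacng1, Scn10a and Scn11a readings was not tested.

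**Figure D1:**
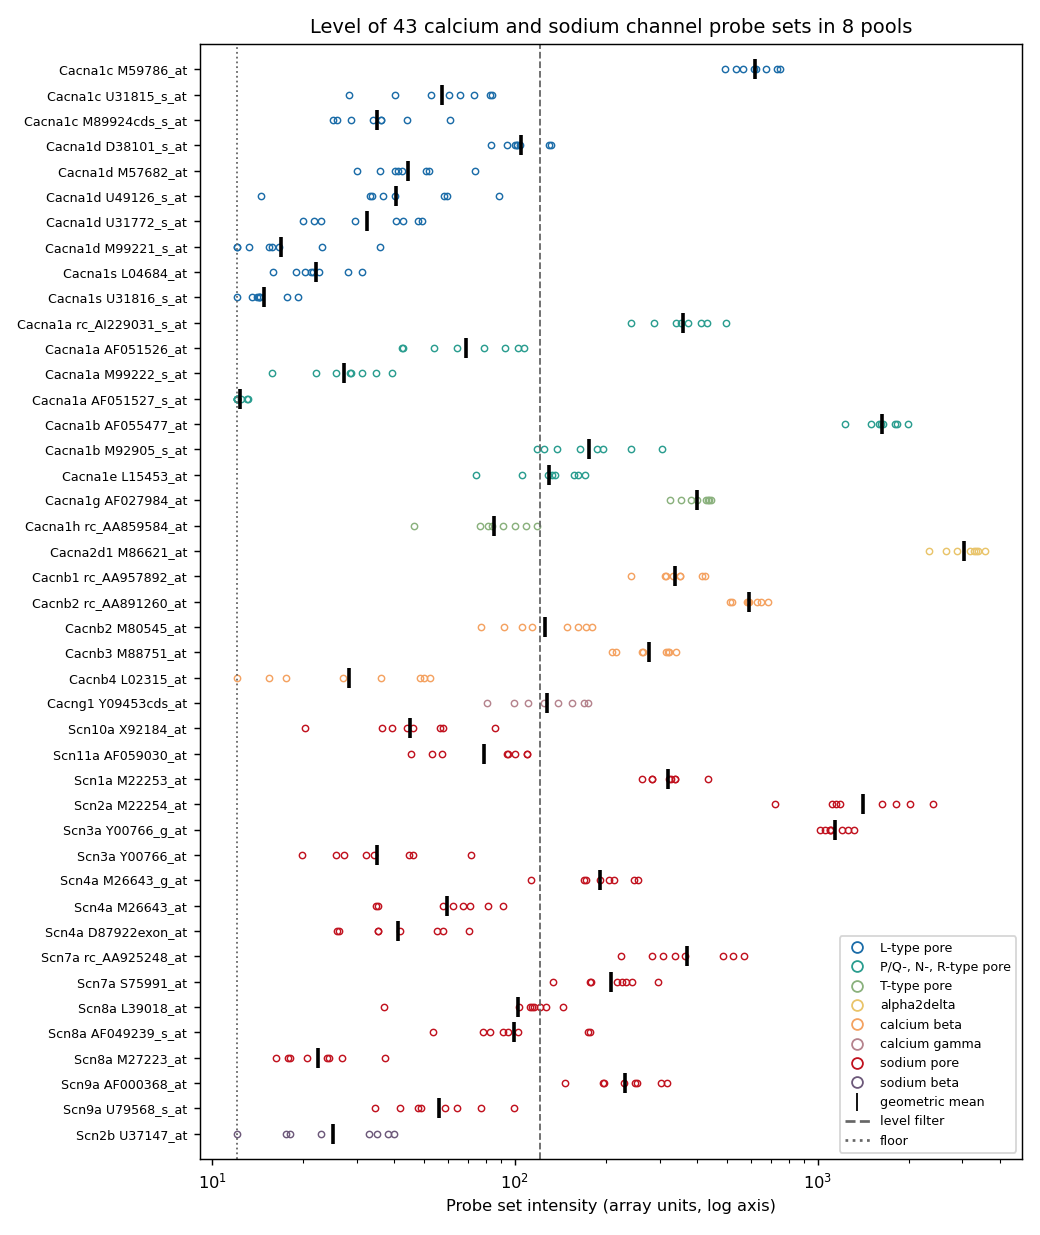
Intensity of the 43 probe sets (log axis, array units) by subfamily. Each open circle is 1 pool (mean of both runs), the black bar is the geometric mean of 8 pools, the dashed line the level filter at 121 and the dotted line the floor at 12.1. Cacna2d1, Cacna1b, Scn2a and Scn3a hold the 4 probe sets with the highest geometric means, while Cacna1d, Cacna1s and Scn8a have none above the filter.

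The first question was whether any of these channel transcripts followed a 24 h rhythm, tested with a cosine and sine fitted to the 8 pools (limma's moderated F test, Benjamini-Hochberg adjustment over 4370 probe sets). None of the 19 tested members passed at an adjusted p under 0.05 (0 of 19, against 0 of 4370 and thus 0% of all tested probe sets). At an unadjusted p under 0.05 there were 2 of 19, Scn4a and Cacnb3, against 6.36% of all tested probe sets. The median fitted amplitude, which is the log2 distance from the mean to the peak, was 0.15 in the members and 0.16 in all tested probe sets. Fitted peaks were spread over the cycle, with 4 of 19 nearest to CT 0, 4 to CT 6, 5 to CT 12 and 6 to CT 18. With 1 pool at each time, the p-values rest on how far pools lie from the curve, array error included.

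The calcium channel pores showed no 24 h pattern that stood out from the spread of the pools. Cacna1c read 751, 675, 733, 493, 537, 568, 613 and 624 in the pools at 0, 6, 12, 18, 24, 30, 36 and 42 h. Its lowest pool was that of 18 h and its highest that of 0 h. The fitted amplitude was 0.089 ± 0.12 (SE, n = 8 pools) with an adjusted p of 0.929 and an exact permutation p of 0.752, where 0.00317 is the smallest that 8 pools allow. Cacna1g read 436, 325, 399, 432, 428, 354, 442 and 382 at the same times. Both CT 6 pools were lower than the other 6, but the amplitude was only 0.13 ± 0.095 (SE, n = 8 pools) and the adjusted p 0.83 (exact permutation p = 0.343). In the first run this order did not hold, with 337 and 362 at CT 6 against 353.5 and 273 at CT 18. The amplitude was 0.084 in the first run and 0.345 in the repeat.

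Cacna1e, the R-type pore, read 135, 106, 170.1, 128, 74.1, 157, 162 and 133. It had the largest amplitude of the tested calcium channel probe sets, 0.36 ± 0.14 (SE, n = 8 pools) peaking at CT 12.1, and the CT 12 pools both exceeded the CT 0 pools, but it did not pass (adjusted p = 0.762, exact permutation p = 0.194). The 24 h value was the lowest of its run in the repeat (50.2) and the lowest but 1 in the first run (109). Without that pool the amplitude was 0.19, the lowest value with 1 pool left out. For Cacna1a (498, 412, 288, 431, 242, 353, 341 and 371) and Cacna1b (1619.7, 1643, 1585, 1224, 1803, 1497, 1989 and 1821) the amplitudes were 0.081 ± 0.16 (SE, n = 8 pools) and 0.045 ± 0.12 (SE, n = 8 pools), with exact permutation p of 0.905 and 0.949.

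Among the accessory subunits, Cacna2d1 read 2874, 3334, 2647, 3182, 3269.7, 3562, 3372 and 2320.0 and varied by 1.54-fold between its lowest and highest pool. The CT 6 pools both exceeded the CT 18 pools, and the amplitude was 0.17 ± 0.10 (SE, n = 8 pools) (adjusted p = 0.801, exact permutation p = 0.289). Cacnb3, a beta subunit of neuronal calcium channels, read 316, 215, 339, 319.6, 263, 209, 264 and 321. Its pools at 6 and 30 h, both CT 6, were the 2 lowest of 8, and in each run both CT 6 values lay below both CT 18 values (237 and 203 against 354 and 369 in the first run, 196 and 216 against 288 and 279.8 in the repeat). In the repeat the 24 and 36 h values were as low as that at 30 h (214 and 201). The amplitude was 0.30 ± 0.10 (SE, n = 8 pools) peaking at CT 17.7, with an unadjusted p of 0.0425 and an adjusted p of 0.746 (exact permutation p = 0.0794), and it was 0.36 in the first run and 0.24 in the repeat.

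Of the tested members, Scn2a had the widest range between pools. It read 2392, 1805, 1178, 722, 2008, 1109, 1627 and 1151, with the highest values at 0 and 24 h, both CT 0, and the lowest at 18 h. Both CT 0 pools were above all others, yet the CT 18 and CT 6 pools of the 2 days differed by more than 1.5 times, and the amplitude of 0.46 ± 0.20 (SE, n = 8 pools) peaking at CT 2.92 did not pass (adjusted p = 0.775, exact permutation p = 0.311). The 18 h value rested partly on 1 of the arrays that stood apart, which read 249.7 against 2086 in the repeat. Without those 3 arrays the amplitude was 0.34, with the 12 and 18 h pools then set from the repeat and the mean run difference of the other pools.

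Scn1a and Scn3a, which also form brain sodium channels, had narrower ranges. Scn1a read 435, 283, 337, 327, 323, 284, 336 and 263, with 7 of 8 pools between 263 and 337 and a single higher one at 0 h, and an amplitude of 0.081 ± 0.12 (SE, n = 8 pools) (exact permutation p = 0.873). Scn3a read 1094, 1201, 1319, 1253, 1014, 1052, 1104 and 1098, a 1.30-fold range that was the narrowest of the 19 tested members, with an amplitude of 0.10 ± 0.090 (SE, n = 8 pools) (exact permutation p = 0.302). The adjusted p was 0.943 for Scn1a and 0.87 for Scn3a.

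The 2 probe sets of Scn7a differed in the order of their pools. The brighter one (rc_AA925248_at) read 524, 571, 284, 224, 365, 309, 486 and 338, and in both runs its lowest value was at 18 h and its values at 0 and 6 h were among the 3 highest. The other (S75991_at) read 177, 232, 217, 244, 179, 134, 226 and 297, with its lowest pool at 30 h. Their fitted peaks were CT 4.60 and CT 16.2 with amplitudes of 0.33 ± 0.18 (SE, n = 8 pools) and 0.34 ± 0.13 (SE, n = 8 pools), and neither passed (adjusted p = 0.799 and 0.75). For the brighter one the pools had an SD of 0.47 on the log2 scale, against 0.14 given by the disagreement of the runs alone (the SD of the run differences divided by 2). Over the members, 12 of 19 had a pool SD above that of the runs, against 58.5% of all tested probe sets.

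Scn4a had the smallest p of the rhythm test among the members. Its tested probe set read 172, 169, 213, 255, 113, 191, 205 and 247, with the lowest pool at 24 h and the highest at 18 h, an amplitude of 0.38 ± 0.13 (SE, n = 8 pools), and a fitted peak of CT 14.6 (adjusted p = 0.746, exact permutation p = 0.0889). The 24 h value was 47.8 in the repeat and 265 in the first run. The Scn4a probe sets below the filter, fitted without it, peaked at CT 20.6 (M26643_at) and CT 14.6 (D87922exon_at). Their amplitudes were 0.34 ± 0.23 and 0.12 ± 0.27 (SE, n = 8 pools). Scn9a read 253, 304, 196, 249, 229, 147, 197 and 317, with its lowest pool at 30 h in both runs, and an amplitude of 0.25 ± 0.15 (SE, n = 8 pools). Cacnb1, a beta subunit known from muscle and brain, read 314, 314, 415, 242, 349.7, 332, 351 and 424, and Cacng1 read 175, 99.0, 169, 139, 125, 110.2, 154 and 80.7. The Cacnb2 probe sets read 632, 511, 589.6, 648, 519, 591, 582 and 682 (rc_AA891260_at) and 172, 91.8, 77.4, 148, 105, 162, 114 and 179.6 (M80545_at), the first over a 1.33-fold range and the second over a 2.32-fold one. The remaining tested members (Cacnb1, both Cacnb2 probe sets, the dimmer Cacna1b probe set and Cacng1) had amplitudes of 0.065 to 0.33 and adjusted p of 0.788 to 0.98.

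**Figure D2:**
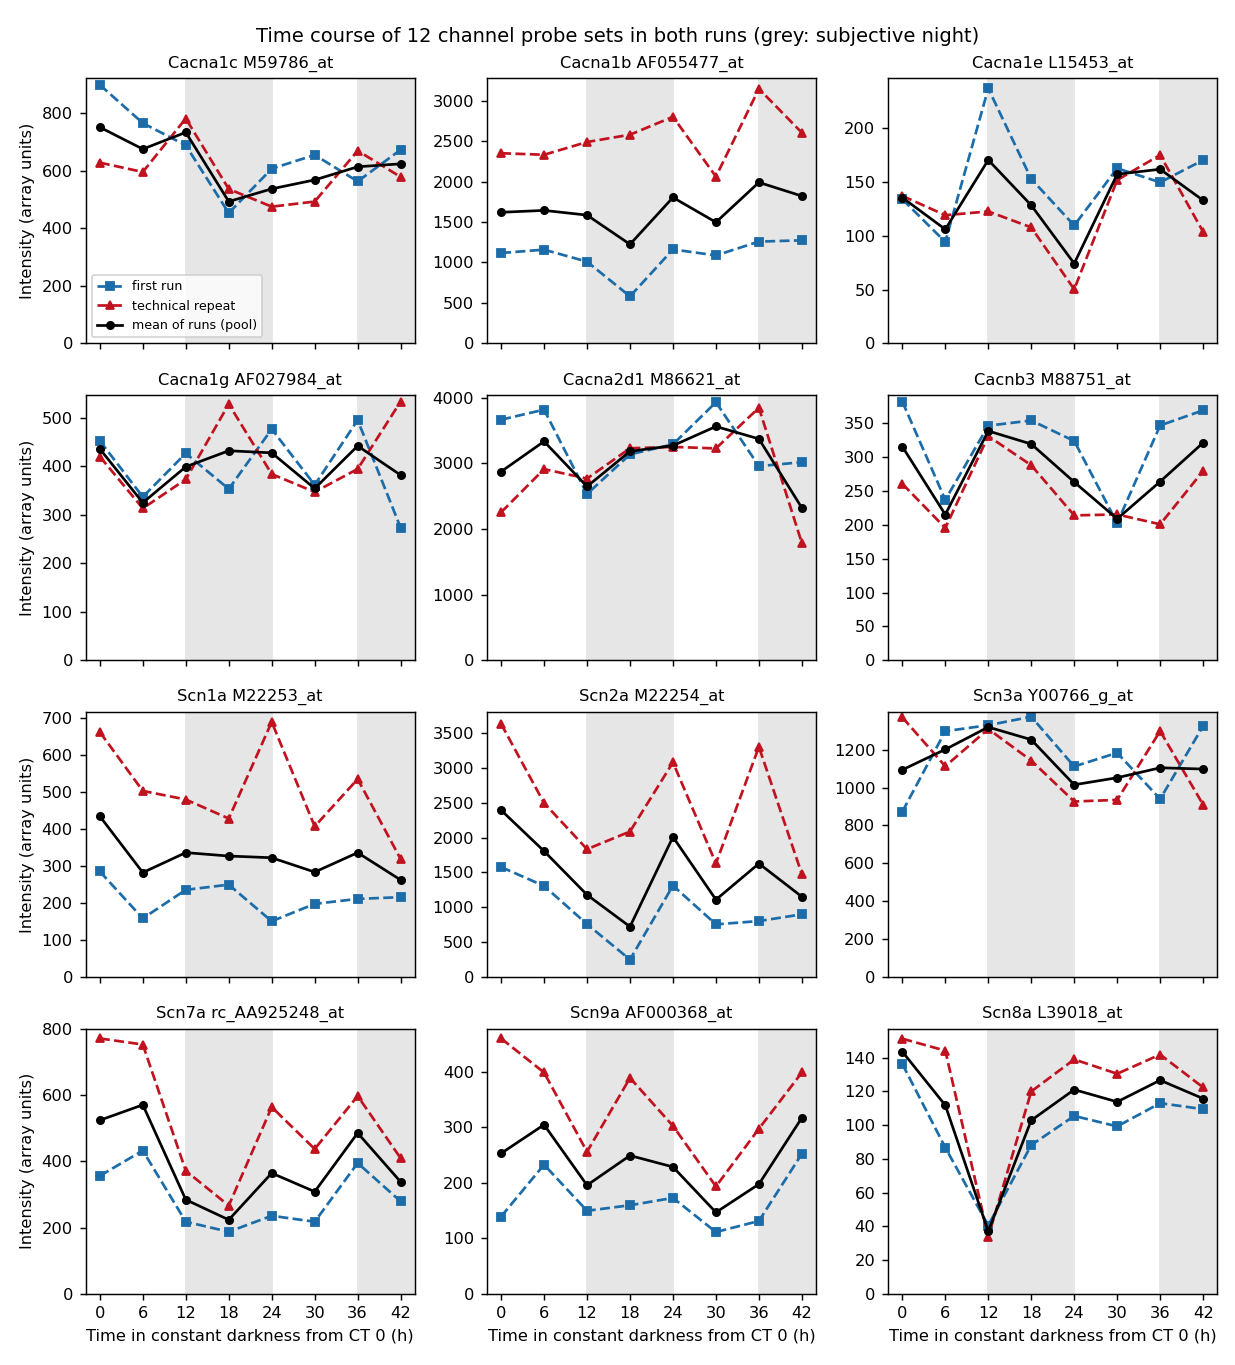
Intensity (linear axis from 0, array units) against time from CT 0 for 12 probe sets, with the subjective night in grey. Blue squares are the first run (arrays a and b averaged), red triangles the technical repeat and black circles their mean on the log2 scale, 1 pool per point. Scn2a, Scn1a, Cacna1b, Scn9a and this Scn7a probe set are higher in the repeat in all 8 pools, and Cacnb3 is lower at 6 and 30 h than at 18 and 42 h in both runs.

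Next, the pools from the end of the subjective day (CT 12) were compared with those from its beginning (CT 0). Limma called 0 of 19 members (0% of all tested probe sets were called), and 2 had an unadjusted p under 0.05, both higher at CT 12, against 8.67% of all tested probe sets in either direction and 4.19% higher. They were Cacna1e, at 0.73 ± 0.28 (SE) on the log2 scale (unadjusted p = 0.0265, adjusted p = 0.542), and Scn4a, at 0.58 ± 0.25 (SE) (adjusted p = 0.569). Without the 24 h pool the Cacna1e difference was 0.38 and the Scn4a difference 0.21, the lowest values of each with 1 pool left out. The Scn4a probe sets below the filter, fitted without it, were at -0.43 ± 0.47 (SE, M26643_at) and 0.19 ± 0.55 (SE, D87922exon_at). Scn2a followed by size of p, at -0.66 ± 0.40 (SE), and its CT 12 pools were both below its CT 0 pools. The pools of the 2 phases did not overlap in 7 of 19 members, against 44.8% of all tested probe sets. At CT 12 there were 5 higher (Cacna1e, Cacnb1, Scn3a, Scn4a and 1 Scn7a probe set) and 2 lower (Scn2a and Scn9a), against 23.2% and 21.6%.

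Between CT 6, the middle of the subjective day, and CT 18, the middle of the subjective night, limma called 0 of 19 members, against 0.0229% of all tested probe sets. An unadjusted p under 0.05 was found for 2 members, both lower at CT 6, against 4.26% of all tested probe sets in either direction and 2.38% lower. Cacnb3 differed by -0.60 ± 0.20 (SE) (unadjusted p = 0.0144, adjusted p = 0.968), by -0.72 in the first run and by -0.47 in the repeat, and between -0.67 and -0.51 with any 1 pool left out. The dimmer Scn7a probe set differed by -0.61 ± 0.25 (SE) (adjusted p = 0.968), but by -0.24 in the first run and -0.99 in the repeat, while the brighter Scn7a probe set differed the other way, by 0.61 ± 0.37 (SE). Scn4a, next by p, was at -0.48 ± 0.25 (SE). Pools of the 2 phases did not overlap in 6 of 19 members, Cacna2d1 higher at CT 6 and Cacna1g, Cacnb2, Cacnb3, Scn4a and Scn7a each lower on 1 probe set, against 31.4% of all tested probe sets (14.1% higher and 17.3% lower). Of these, Cacna1g differed by -0.26 ± 0.19 (SE), but by 0.168 in the first run alone. Scn2a differed by 0.63 ± 0.40 (SE), and by 0.17 without the 3 arrays that stood apart.

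The second day in darkness was set against the first with a day term beside the cosine and sine. Limma called 0 of 19 members (0% of all tested probe sets) and 1 had an unadjusted p under 0.05, a lower one, against 3.96% in either direction and 2.06% lower. It was the dimmer probe set of Cacna1b (M92905_s_at), which read 186, 242, 195, 307, 125, 137, 119 and 164, so that all 4 pools of day 2 lay below all 4 of day 1 (1 of 19 members, against 0.961% of all tested probe sets lower in this way). The days did not overlap in the repeat, but they did in the first run, at 182.5 to 478.6 on day 1 and 163 to 318.5 on day 2. In that run arrays a and b at 24 h read 68.7 and 388.8. The difference between days was -0.75 ± 0.19 (SE) (unadjusted p = 0.00242, adjusted p = 0.9968), -0.33 in the first run and -1.18 in the repeat. The brighter Cacna1b probe set went the other way, at 0.23 ± 0.16 (SE). Next by p were Scn3a at -0.19 ± 0.12 (SE) and Cacna1a at -0.31 ± 0.21 (SE) (adjusted p = 0.9968 and 0.9968). The median day difference was -0.11 in the members and 0.00144 in all tested probe sets.

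**Figure D3:**
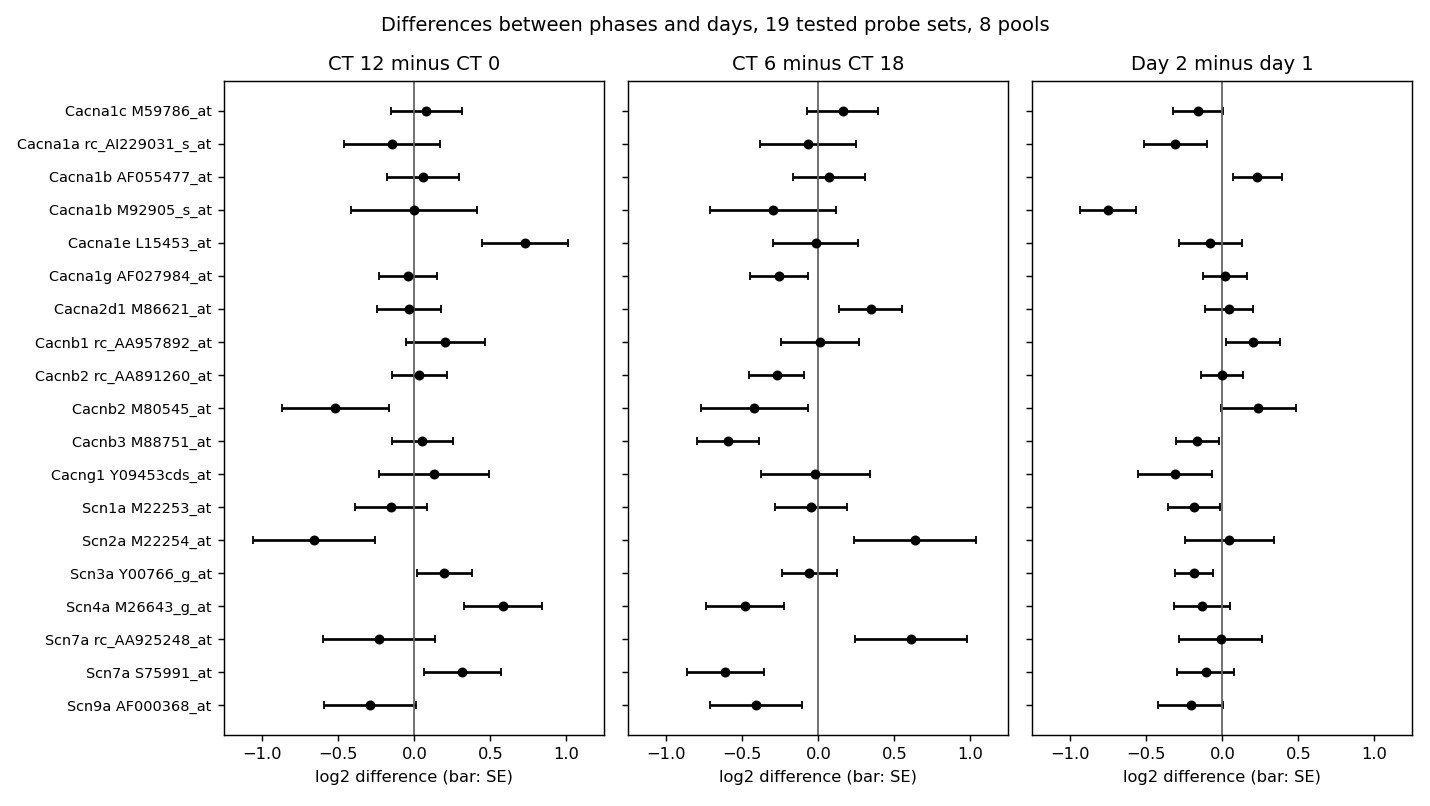
Log2 differences with their SE for the 19 tested probe sets between CT 12 and CT 0, CT 6 and CT 18, and day 2 and day 1, each from the fit to 8 pools. None passed adjustment over 4370 probe sets. Among the points far from 0 are Cacna1e in the first panel, Cacnb3, Scn2a and both Scn7a probe sets (of opposite sign) in the second, and the dimmer Cacna1b probe set in the third.

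The 2 runs read the same pools, since the labels call the second a technical replicate. In limma's test of the 8 differences within a pool, 10 of 19 members passed at an adjusted p under 0.05, against 48.4% of all tested probe sets, so that the share in the channel genes was near that of the array as a whole. In the repeat 6 were higher and 4 lower, against 20.9% and 27.5% of all tested probe sets. The sodium channels Scn2a, Scn1a and Scn9a rose in the repeat by 1.45 ± 0.23 (SE), 1.23 ± 0.17 (SE) and 1.00 ± 0.14 (SE) on the log2 scale (n = 8 pools, adjusted p = 0.000411, 0.000185 and 0.000176 by limma). In 6 of 19 members all 8 pools went the same way, upwards in each (31% of all tested probe sets in either direction, 13.2% upwards). Scn1a read 286, 159, 236, 249.9, 151, 198, 211 and 216 in the first run (arrays a and b averaged) and 663, 504, 480.3, 429, 690.1, 408, 536 and 319 in the repeat. The lowest repeat value lay above the highest of these first-run values, but not above every single array. Arrays a and b of Scn1a read 236.2 and 96.4 at 24 h, and 363.8 and 122.8 at 36 h. The brighter Scn7a probe set and Cacnb2 (rc_AA891260_at) rose by 0.83 ± 0.12 (SE) and 0.53 ± 0.13 (SE), whereas the other Scn7a and Cacnb2 probe sets were at -0.046 ± 0.20 (SE) and 0.33 ± 0.26 (SE) and did not pass.

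The 2 probe sets of Cacna1b moved in opposite directions between the runs. The brighter one rose from 1055 to 2526 in geometric mean (1.26 ± 0.14 (SE), adjusted p = 6.81e-05 by limma), and the dimmer one fell from 263 to 117 (a log2 difference of -1.16 ± 0.23 (SE), adjusted p = 0.00158). Cacna1a, Scn4a and Cacnb3 were lower in the repeat, at -0.83 ± 0.26 (SE), -0.79 ± 0.26 (SE) and -0.36 ± 0.12 (SE) (adjusted p = 0.0203, 0.0251 and 0.0284). When all arrays were scaled to the same median, which moved the median run difference of all tested probe sets from -0.06 to 0.24, 7 members were called higher, among them Cacnb1, and 1 lower in the repeat, against 52% of all tested probe sets called. With quantile normalization 6 were called higher and 2 lower, against 47%. The 6 members first given as higher and the dimmer Cacna1b probe set were called under both, Scn4a and Cacnb3 under neither and Cacna1a only with quantile normalization. With 1 pool left out, the Scn4a call was lost without 30 h, the Cacna1a call without 36 h and the Cacnb3 call without 0, 24, 36 or 42 h, and the Scn4a and Cacna1a calls also without the 3 arrays that stood apart and with no level filter. Cacna1c, Cacna1g, Cacna2d1 and Scn3a did not pass in this comparison, at log2 differences of -0.20 to 0.055, whose signs changed under at least 1 alternative each. Cacna2d1 was called without arrays b, at -0.33 ± 0.13 (SE, adjusted p = 0.0491 by limma), and without the 3 arrays that stood apart, at -0.40 ± 0.14 (SE, adjusted p = 0.041). A difference between runs does not enter the time comparisons as such, because each pool is the mean of both runs.

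**Figure D4:**
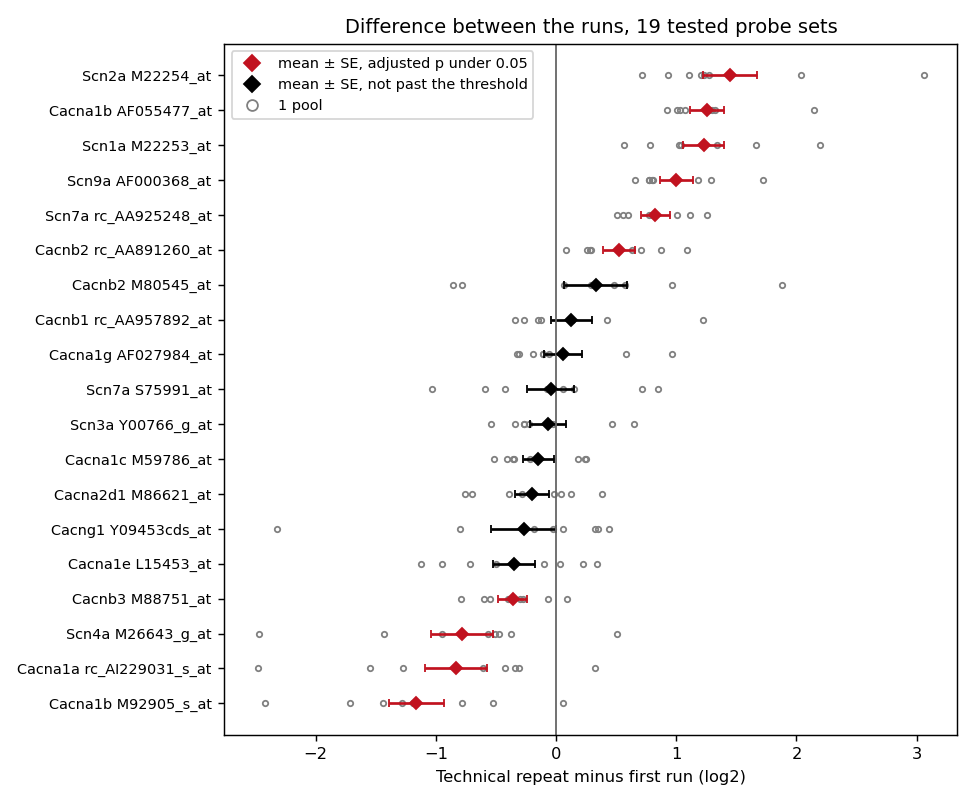
Technical repeat minus first run (log2) for the 19 tested probe sets, ordered by size. Open circles are single pools, diamonds the mean ± SE of 8 pools, in red where limma's adjusted p was under 0.05. Scn2a, Cacna1b, Scn1a, Scn9a, Scn7a and Cacnb2 each have a probe set with all 8 pools above 0, while the dimmer Cacna1b probe set is at the other end.

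The 24 members below the filter, which stand alone for 8 genes, were fitted without it, with adjustment over 8740 probe sets. Of all 43 members 0 passed in the rhythm test, where 6 of 43 had an unadjusted p under 0.05, against 6.51% of the 8740. The probe sets of Cacna1d with such a p had different fitted peaks. U31772_s_at peaked at CT 8.53 (amplitude 0.68 ± 0.11, SE, n = 8 pools, with an adjusted p of 0.614 by limma) and read 29.7, 49.5, 42.6, 19.9, 21.7, 40.6, 48.0 and 22.8. In the repeat it lay at the floor of 12.1 at 12, 24 and 42 h. Its first-run arrays a and b at 24 h read 14.3 and 105.5. U49126_s_at peaked at CT 12.6 (amplitude 0.84 ± 0.24). In the repeat it lay at the floor of 12.1 at 0 and 24 h, where the first run read 17.3 and 111. D38101_s_at, the brightest, peaked at CT 18.2 (amplitude 0.25 ± 0.080). The Scn11a amplitude was 0.61 ± 0.13, peaking at CT 7.24 (adjusted p = 0.729), from a repeat that varied between 16.7 and 104 and a first run between 116 and 152. That first-run range averages arrays a and b, which read 65.7 and 293 at 36 h.

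Scn8a (L39018_at) is singled out after its values were seen. It read 144, 112, 37.1, 103, 121, 114, 127 and 116, so that 7 pools lay between 103 and 144 and the 12 h pool at 37.1. The low value was found in both runs (40.5 and 33.9) but not at 36 h, the same phase a day later (113 and 142). The first-run array at 12 h was 1 of those that stood apart, and the repeat array was not. The other Scn8a probe sets read 91.1 and 18.1 at 12 h, within the ranges of 53.5 to 177 and 16.2 to 37.4 of their pools.

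Genes that anchor, modulate or act downstream of these channels were read from a list of 47, of which 32 were annotated and 21 passed the filter on their brightest probe set. Limma called 0 of the 21 in the rhythm test and 0 in each of the comparisons of phases and days, and an unadjusted p under 0.05 was found for 0 in the rhythm test, 1 between CT 12 and CT 0 (Stx1a, a syntaxin of transmitter release, 0.44), 0 between CT 6 and CT 18 and 0 between days. These counts cover only the brightest probe set of each gene. A second tested Snap25 probe set had an unadjusted p of 0.0074 in limma's rhythm test. Between CT 12 and CT 0 it was at -0.90 (unadjusted p = 0.0024 by limma), and the second Stx1a probe set was at 0.042. Another Ank3 probe set differed by 0.48 between days (unadjusted p = 0.025 by limma). None of these passed adjustment. The median amplitude of the 21 was 0.14, against 0.16 in all tested probe sets. Between the runs 14 of 21 passed, 7 higher and 7 lower in the repeat, against 48.4% of all tested probe sets. Nalcn, the sodium leak channel, was higher in the repeat by 0.87, and Camk2b, a calcium and calmodulin dependent kinase, was lower, at -1.39. Ank3, the ankyrin that holds sodium channels at the initial segment, differed by -0.086 and had an amplitude of 0.10.

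Promoters were read from RefSeq sequence (build GRCr8) for the 18 of 24 member genes in the table used, in 21 windows of the 250 bases before the annotated start, and searched on both strands for 4 motifs that clock and cAMP signalling factors are known to bind. The E-box CACGTG was in 0 of 21 windows (5.59% of all 33469 windows), the D-box TTATGTAA in 0 (0.828%) and the cAMP response element TGACGTCA in 0 (1.59%). The nuclear receptor element AGGTCA was in 1 (14.1%), that of Scn9a. These counts describe the letters in these windows and say nothing of binding. The windows of Cacnb3, which had the smallest p between CT 6 and CT 18, and of Scn9a are shown, at chr7:131666301-131666550 (plus strand) and chr3:71701378-71701627 (minus strand), with AGGTCA in capitals, its first base 131 bases before the start.
Cacnb3: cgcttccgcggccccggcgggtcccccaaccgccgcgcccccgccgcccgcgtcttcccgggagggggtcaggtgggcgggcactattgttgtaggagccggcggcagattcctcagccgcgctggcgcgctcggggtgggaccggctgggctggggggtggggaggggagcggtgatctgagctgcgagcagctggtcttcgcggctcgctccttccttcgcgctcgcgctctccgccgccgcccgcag
Scn9a: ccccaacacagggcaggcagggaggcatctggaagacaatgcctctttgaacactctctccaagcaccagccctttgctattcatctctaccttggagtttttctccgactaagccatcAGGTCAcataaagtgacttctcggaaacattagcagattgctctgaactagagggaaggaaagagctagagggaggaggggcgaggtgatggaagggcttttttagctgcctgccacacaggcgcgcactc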

How the data were processed

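The labels describe total RNA of rat SCN on U34A arrays. The deposited values are intensities on a linear scale; how probes were summarised is not given in the sources used here. From the values, the mean after trimming 2% at each end was 500.7 to 500.8 on the 18 arrays. Values under the 10th percentile of the table (12.1) were set to it and transformed to log2. Arrays a and b were averaged, then the runs, so that the pool is the replicate (n = 8). The 59 control probe sets were left out. Tests used limma 3.58.1 in R 4.3.3 (lmFit, eBayes) with Benjamini-Hochberg adjustment over 4370 probe sets and a threshold of 0.05. The cosine and sine fit had 5 residual and 5.13 prior degrees of freedom, and the fit with the day term had 4 residual. CT 12 minus CT 0 and CT 6 minus CT 18 are read from the cosine and sine. Scripts were tested on simulated data. The exact permutation test is two-sided and has 315 distinct arrangements. Symbols came from the platform annotation (7006 probe sets with 1, 308 with several, 1426 with none), and RefSeq's current table changed 0 of the members'. Members and lists were chosen with earlier results of these data known. Values in every pool are given for members listed by role and for the 3 smallest p of each comparison; the remaining members are ranged. The number of pools (8, with 2 at each phase) and of arrays limits the precision.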

Additional observations from a re-analysis of the deposited data

Results flagged for a closer look

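In 38 groups of 4 pools (19 tested probe sets on each of 2 days), 2 held a pool far from the other 3, and chance gives about 1 in 20. The 18 h pool of the brighter Cacna1b probe set read 1224, against 1585 to 1643 in the other day 1 pools. Its first-run array was 1 of the 3 that stood apart and read 581, the lowest of its run, while the repeat read 2578, inside the repeat's range of 2061 to 3145. That array also gave the lowest first-run value of Scn2a, Cacna1c, Cacnb1 and a Scn7a probe set, 5 of 19 members in all, against 23.1% of all tested probe sets. The 6 h pool of Cacnb3 read 215, against 316 to 339, and was the lowest of day 1 in both runs. A change of the 24 h pattern between days or between runs was called for 0 of 19 members by limma (0 of 4370 probe sets in both tests, with 2 and 0 members at an unadjusted p under 0.05, against 3.8% and 3.11% of all tested probe sets).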

How the results depend on the processing

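The rhythm, phase and day comparisons called 0 members under every alternative run: other scaling (quantile, median), other level filters (none, 75th percentile), another floor or a pseudocount, limma's trend and robust options, the runs apart, fewer arrays at 24 and 36 h, 1 pool fewer, the day term changed, and, chosen after seeing the data, without the 3 arrays that stood apart. The fit to single arrays, with the run as a fixed term and the arrays of a pool treated as correlated, also called 0 in each. Between the runs, 10 members were called, 17 of 43 with no level filter (33.8% of all probe sets) and 3 of 6 with the filter at the 75th percentile (55.4%), since other probe sets were tested, and 8 to 10 with 1 pool left out. The day difference of Cacna1a was -0.31 and turned to 0.049 in the first run alone (the cause was not tested). Of the 24 values chosen by the naming rule, the other 23 kept their sign and their side of the threshold in all alternatives that tested them. The rhythm amplitudes among them cannot be negative, so their sign could not change. Their fitted peak times were not compared between alternatives. Other run differences gained or lost calls, as the report gives, and small uncalled ones changed sign. Over these alternatives the adjusted p of Cacnb3 in the rhythm test was 0.609 to 0.984, and that of the dimmer Cacna1b probe set between days 0.105 to 0.999.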
